A study of Mus musculus with 6 samples.

Results

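Aminoacyl-tRNA synthetases join each amino acid to its transfer RNA and so supply the ribosome with charged tRNA. Cytosolic enzymes serve the ribosomes of the cytosol, and a separate set, encoded in the nucleus and imported, serves those of mitochondria. Several cytosolic enzymes sit together in a multi-synthetase complex, and many cytosolic synthetase genes are known targets of ATF4, the transcription factor of the amino acid response. The 36 genes described here were chosen by symbol, 20 for cytosolic and 16 for mitochondrial enzymes, out of 24421 symbols in the deposited tables. All 36 were found under the listed symbol, and all 36 passed the filter on low values described with the processing.

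RNA was sequenced from prostates of mice carrying the PB-Cre4 transgene and a floxed gene, 2 intact and 4 castrated samples. In this model of prostate cancer, Cre under the promoter of the probasin gene, which is active in prostate epithelium, deletes the floxed gene, so stromal, vascular and immune cells of the tissue keep it. Both groups carry this genotype, no library without the deletion is used here, and the sources used here give neither the age of the mice nor the time since castration. Nothing in the labels states that each sample is its own animal. The p-values therefore cover the spread among these 6 libraries alone, and that spread may be technical.

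Between 43679297 and 59170793 reads per library were counted in genes. Levels are given as rescaled CPM, the reads per 1000000 counted in genes after division by a size factor for each library. The lowest count of any synthetase gene in any library was 285 reads, in Mars2. For the least abundant mitochondrial genes counting error is therefore part of the spread between libraries. Castrated sample 4 correlated less with castrated samples 1 and 3 (0.941 and 0.954 on the log2 scale) than these 2 did with each other (0.988). Castrated sample 2 lay between them, at 0.969 with sample 1, 0.974 with sample 3 and 0.970 with sample 4. With intact samples 1 and 2, castrated sample 4 correlated at 0.9505 and 0.9519, above its 0.941 with castrated sample 1. The other castrated samples correlated with intact samples at 0.9409 to 0.9521. On the first principal component of the genes tested (48.7% of the variance), castrated sample 4 lay at -5.46. The intact samples lay there at -46.1 and -42.5 and the other castrated samples at 20.6 to 37.5. The 8 luminal epithelial markers summed to between 7560 and 7810 rescaled CPM in the intact and between 6060 and 8323 in castrated samples. Of the 6 neutrophil markers, 5 were tested and limma called 4 higher at an adjusted p under 0.05 (0.698% of all genes tested). The 4 were S100a8, S100a9, Cxcr2 and Csf3r, named after their values were seen. The 6 markers summed to 29.7 to 68.0 in intact and 199.5 to 353 in castrated samples. The 4 basal epithelial markers summed to 3209 to 3625 in intact and 556 to 3409 in castrated samples, with a median log2 difference of -0.92 and 0 passing the test. The 6 smooth muscle markers summed to 194 to 208 in intact and 257 to 461 in castrated samples, with 0 passing the test. Over all genes tested, 1.97% passed it in either direction. The part of these cell types in the synthetase values was not tested, and in whole tissue fewer cells of a type and less RNA per cell cannot be told apart.

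None of the 36 synthetase genes passed the limma test between castrated and intact prostates. In limma with Benjamini-Hochberg adjustment, 0 of 20 cytosolic and 0 of 16 mitochondrial genes were called, where 1.97% of the 13898 genes tested were called, 1.27% lower and 0.698% higher in castrated samples. Without castrated sample 4 the count was again 0 of 36, where 4.25% of all genes were called lower and 3.38% higher. The cytosolic genes nonetheless lay mostly on one side. Of the 20, 18 had a log2 difference (castrated minus intact, on log2 of rescaled CPM + 0.5) below 0, against 49.9% of all genes tested, and the median was -0.12 against 0.00 over all genes. The mitochondrial genes were split evenly, 8 below and 8 above 0, with a median of -0.02. Groups did not overlap in 8 cytosolic genes, each lower in castrated samples (13.2% of all genes tested), and in 0 cytosolic genes that were higher (13.4% of all genes tested). Among mitochondrial genes 4 were lower without overlap and 1 was higher. At an unadjusted limma p under 0.05 there were 3 cytosolic genes lower (8.06% of all genes tested), 0 higher (7.84% of all genes tested) and 0 mitochondrial genes. On recovered reads edgeR called 0 of the 36, against 1.07% of all genes lower and 0.41% higher. DESeq2 called 1 of the 36, Vars, lower, against 4.54% of all genes lower and 4.76% higher.

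**Figure D1:**
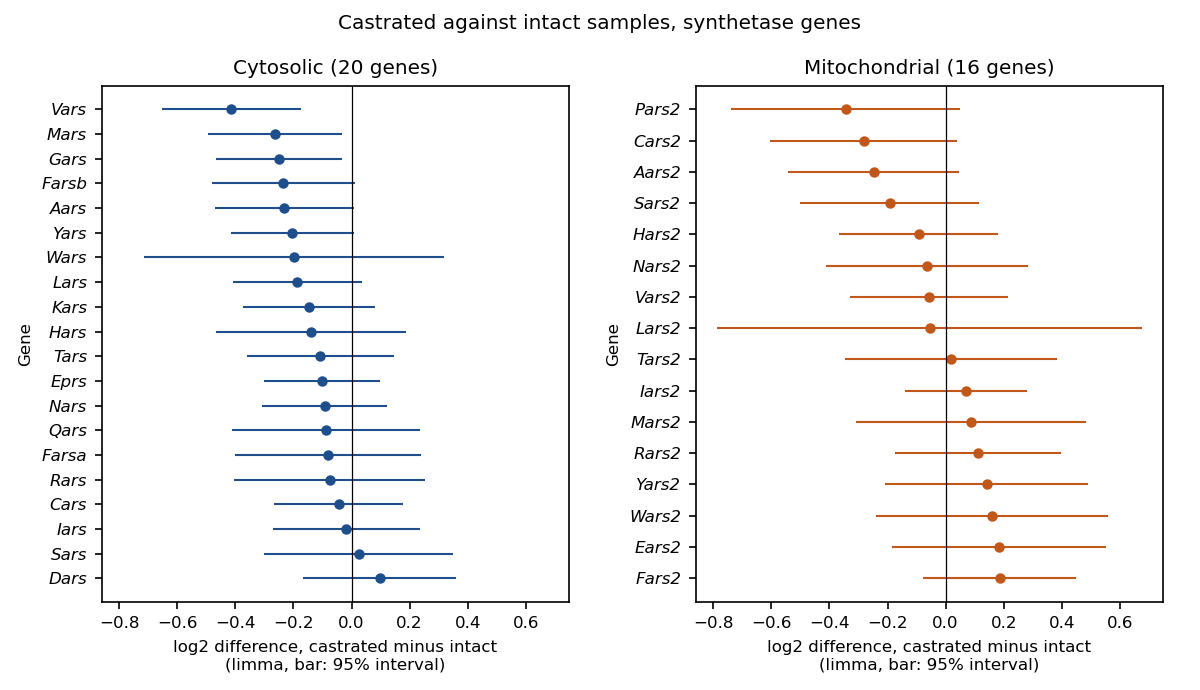
Log2 difference of each synthetase gene, castrated minus intact samples (x axis), with its 95% interval from limma, for 20 cytosolic genes (left) and 16 mitochondrial genes (right). Points left of the line at 0 are lower in castrated samples, 18 of 20 on the left and 8 of 16 on the right. The limma adjusted p was over 0.05 for each gene.

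The intervals bound how large a difference these libraries leave possible. The 95% interval lay within 2-fold of no change for 36 of 36 synthetase genes, against 73.7% of all genes tested. It lay within 1.5-fold for 31 of 36, against 46.5%. Over all genes tested, which include genes near the filter on low values, the SE reached 2.59, against at most 0.306 among the members. The part of expression level in this contrast was not tested. The count of cytosolic genes below 0 was 16 on the CPM as deposited and 18 with TMM scaling. With 1 sample left out it was between 16 (without intact sample 1) and 19 (without intact sample 2 or castrated sample 3). The size factors bring the median over all genes close to 0 by construction. On the CPM as deposited that median was 0.05, and 5793 of the 13898 genes tested were below 0.

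Many synthetase genes carry near their start a C/EBP-ATF response element, a composite site through which ATF4 acts in the amino acid response. Promoters from RefSeq (GRCm38.p6, 250 bases before to 50 bases after each gene's start) were searched on both strands for the core letters TGATGNAA, and 27 of the 36 members had such a sequence, 13 cytosolic and 14 mitochondrial. The letters were found in 5 of 13 cytosolic promoters, in 0 of 14 mitochondrial ones and in 4.51% of all 27025 genes with a promoter. The 5 cytosolic genes were Aars, Gars, Iars, Tars and Yars, and each also belongs to a list of 12 cytosolic synthetases known as targets of the amino acid response. Of 20 other genes of that response, 19 had a promoter sequence and 5 held the letters (26.3%). Asns was among these 5, and Mthfd2 and Phgdh, described further below, were not. A match is a description of the letters, not a shown binding site. The stretches are printed because they separate the promoters of cytosolic synthetases from one another, with Asns, a classic target of that response, for comparison. Each is read 5′ to 3′ along the gene's strand, and capitals mark the match, which appears as its reverse complement where it lies on the opposite strand.
Aars: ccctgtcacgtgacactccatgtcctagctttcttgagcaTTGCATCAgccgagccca
Gars: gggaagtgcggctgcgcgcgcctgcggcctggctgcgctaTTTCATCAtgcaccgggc
Iars: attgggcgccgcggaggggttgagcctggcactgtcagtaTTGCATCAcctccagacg
Tars: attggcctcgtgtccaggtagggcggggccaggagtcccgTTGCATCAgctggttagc
Yars: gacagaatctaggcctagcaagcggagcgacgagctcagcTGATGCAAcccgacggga
Asns: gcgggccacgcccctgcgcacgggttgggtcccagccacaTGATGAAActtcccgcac
These lie at chr8:111033690-111033747 (+), chr6:55037931-55037988 (+), chr13:49682097-49682154 (+), chr15:11399656-11399713 (-), chr4:129189866-129189923 (+) and chr6:7693215-7693272 (-), in that order. The match begins 112 bases before the start in Aars, 30 before it in Gars and 15 before it in Tars, and at base 8 after it in Iars and base 4 in Yars. Aars holds a further match at base 10 after its start.

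Expression of the 5 cytosolic genes with the letters differed little between the groups. Their median log2 difference was -0.20, from -0.02 (Iars) to -0.25 (Gars), and 5 of 5 were below 0 (4 of 5 on the CPM as deposited). The 8 cytosolic genes with a promoter sequence but without the letters had a median of -0.09, with 6 of 8 below 0. Limma called 0 genes in either set (1.97% of all genes tested). Of the 12 cytosolic synthetases known as targets of the amino acid response, 11 were below 0 with a median of -0.15, and of the other 8, 7 were below 0 with a median of -0.11.

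Levels per kb of exon placed nearly all cytosolic genes above the mitochondrial ones. The median was 30.6 rescaled CPM per kb over the cytosolic and 7.02 over the mitochondrial genes. Among cytosolic genes Qars, the glutaminyl-tRNA synthetase (chromosome 9, 108507706 to 108515941), was highest at 87.0, followed by Vars at 85.7, and Cars, the cysteinyl-tRNA synthetase (chromosome 7, 143557230 to 143600090), was lowest at 17.9. Farsa and Farsb, which encode the alpha and beta subunits of 1 phenylalanyl-tRNA synthetase, were close to each other at 29.0 and 27.9. The lowest member was Mars2, the mitochondrial methionyl-tRNA synthetase (chromosome 1, 55237177 to 55248470), at 0.616. Its 1 annotated exon of 11294 bases, the longest exon length among the members, lowers this level, against 2963 bases for Mars. Without division by length, Mars averaged 81.4 and Mars2 6.63 rescaled CPM in intact samples. In castrated samples Pars2, at a mean of 6.42, lay below Mars2, at 7.11. Of 13 amino acids with 1 cytosolic and 1 mitochondrial gene among the members, the cytosolic gene was higher per kb in each library for 12. Leucine was the exception. For the 12, the ratio averaged over the 6 libraries ran from 1.23 times (Iars to Iars2) to 40.02 times (Mars to Mars2). The latter rests in part on the long Mars2 exon.

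**Figure D2:**
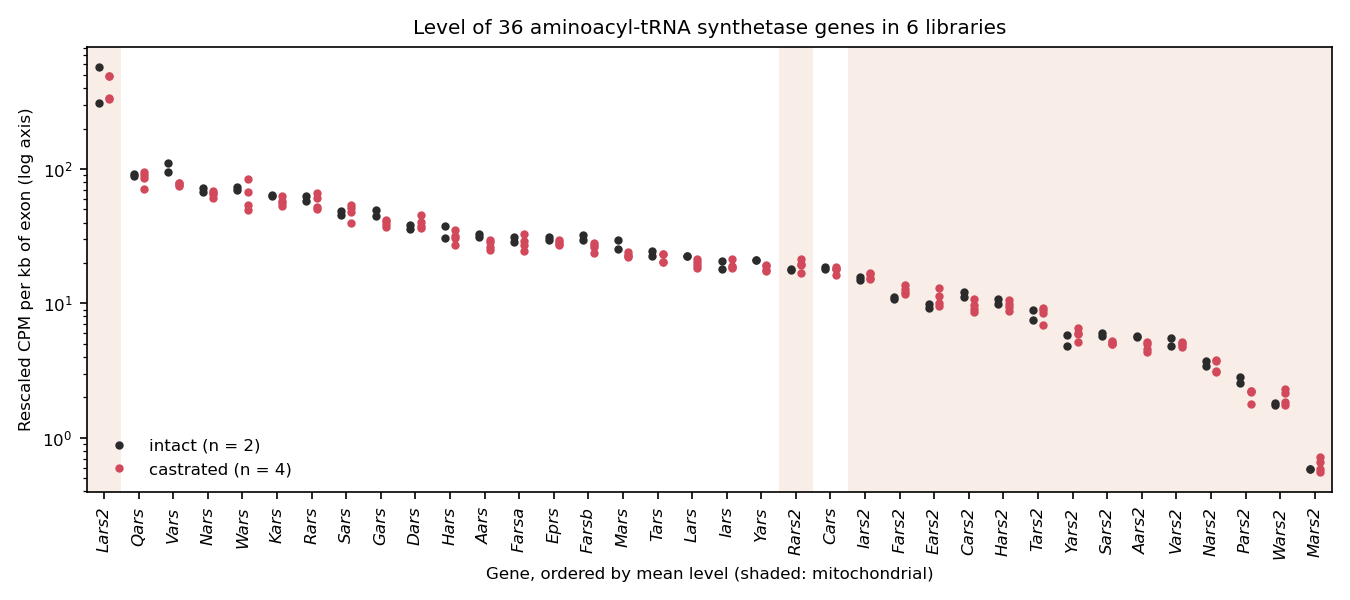
Level of the 36 synthetase genes in rescaled CPM per kb of exon (y axis, log scale), ordered by mean level (x axis), with 1 point for each library of the intact (n = 2) and castrated (n = 4) groups. Shaded columns are mitochondrial genes, which fill the lower end from Iars2 down to Mars2 at 0.616, while Lars2, whose listed level may include ribosomal RNA reads, stands alone at the top at 422.

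Lars2, the mitochondrial leucyl-tRNA synthetase gene (chromosome 9, 123366927 to 123462666), was listed far above all other members. It was at 2228 and 1209 rescaled CPM in the first and second intact sample, and at 1298, 1903, 1314 and 1915 in castrated samples 1 to 4. Both intact values bracket the 4 castrated ones, so the groups overlap fully. Its log2 difference was -0.06 with an interval of -0.79 to 0.68, the widest among the members, and it was 0.38 without intact sample 1 and -0.50 without intact sample 2. Per kb it stood at 422, against 18.8 for Rars2, the next mitochondrial gene. Of the 50-base stretches in its annotated transcripts, 0.196% also occur in transcripts of 5 other genes (Gm47414, Gm36618, 2410004P03Rik, Cd38 and Gm15564). That share counts exact matches along the transcripts, so it cannot bound the share of reads that came from other genes. The ribosomal RNA precursor gene Rn45s, chosen after these values were seen, was at 4223 and 2602 in the first and second intact sample, and at 4051, 2782, 2094 and 1946 in castrated samples 1 to 4. Both genes were highest in intact sample 1, whereas Rn45s was next highest in castrated sample 1, where Lars2 was among its lowest values. As background, mouse Lars2 is known to collect reads from ribosomal RNA in sequencing data, so its listed level may not be that of its messenger RNA. The part of ribosomal RNA in the Lars2 value was not tested. Lars2 makes up most of the summed mitochondrial list, so sums below leave it out.

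Vars, the valyl-tRNA synthetase (chromosome 17, 35000987 to 35016322), had the largest difference of the members. It was at 395 and 457 rescaled CPM in the intact group and at 328, 314, 309 and 325 in castrated samples 1 to 4. Every castrated value lay below both intact values, and the castrated samples agreed closely with one another (319 ± 9.31, n = 4, against 426 ± 43.7, n = 2). The log2 difference was -0.41 ± 0.10 (SE), with an interval of -0.65 to -0.18, an unadjusted p of 0.00487 and a limma adjusted p of 0.104. DESeq2 gave an adjusted p of 0.00251 and edgeR 0.109, and the other alternatives ranged up to 0.490, with sizes from -0.31 (without intact sample 2) to -0.52 (without intact sample 1). No annotated exon of another gene overlaps those of Vars.

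In cells the valyl enzyme is bound to the elongation factor complex that reloads the tRNA-delivering factor. The genes of that complex did not share the direction of Vars: log2 differences were 0.20 for Eef1g (-0.09 to 0.48), 0.21 for Eef1b2 (-0.13 to 0.56) and 0.06 for Eef1d (-0.28 to 0.39). Eef1g was at 751 and 725 rescaled CPM in the intact and at 868, 917, 835 and 772 in castrated samples 1 to 4. These values do not overlap and are higher in castrated samples, although Eef1g did not pass the test (limma adjusted p = 0.495). The mitochondrial counterpart Vars2 had a log2 difference of -0.06. Per kb, Vars stood 19.8 and 20.02 times above Vars2 in intact samples and 14.4 to 16.6 times above it in castrated samples.

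**Figure D3:**
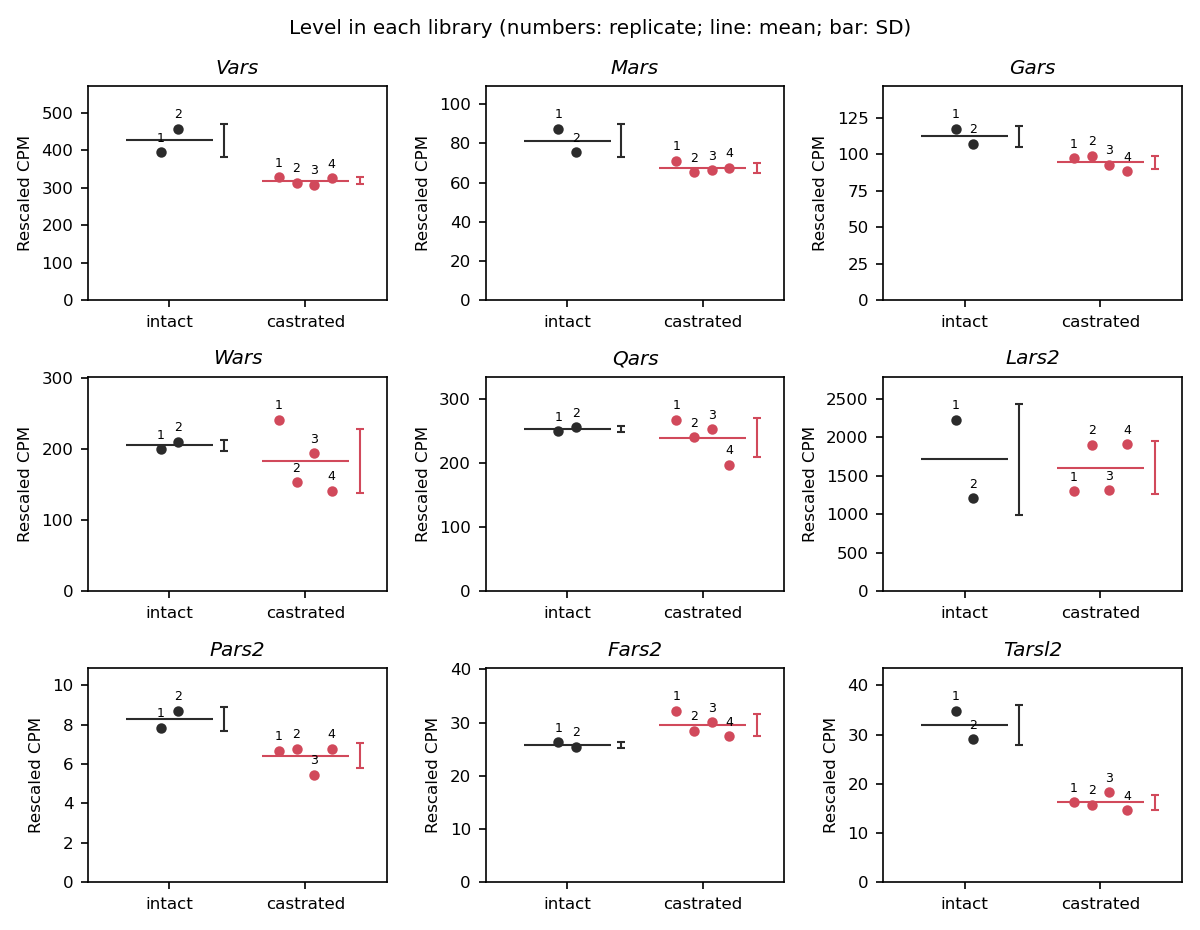
Level in rescaled CPM (y axis, from 0) of 8 synthetase genes and of Tarsl2, a gene outside the 36, in each intact and castrated library (points numbered by replicate), with the group mean (line) and SD (bar). Vars and Tarsl2 show 4 castrated values below both intact ones, whereas the intact values of Lars2, 2228 and 1209, enclose all castrated values.

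Among the enzymes of the multi-synthetase complex, 7 of 8 genes were below 0, with a median of -0.09. Mars, the methionyl-tRNA synthetase (chromosome 10, 127296221 to 127311786), which charges the initiator tRNA as well, was at 87.4 and 75.4 rescaled CPM in the intact and at 71.1, 65.3, 66.2 and 67.7 in castrated samples 1 to 4. The groups did not overlap, by a small margin over intact sample 2. Its log2 difference was -0.26 ± 0.10 (SE; limma adjusted p = 0.247), from -0.16 without intact sample 1 to -0.37 without intact sample 2. The gene Ddit3, on the opposite strand, covers 2.29% of the exon bases of Mars, and the sources used here do not state if strand was used in counting.

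Kars encodes the lysyl enzyme of both compartments (chromosome 8, 111993443 to 112011323). It was at 143 and 142 rescaled CPM in the intact and at 141, 130.3, 126 and 119 in castrated samples 1 to 4, without overlap and with a log2 difference of -0.15 (interval -0.37 to 0.08). Castrated sample 1 lay close to the intact values and sample 4 was lowest. Lars, the cytosolic leucyl enzyme whose product also senses leucine for mTORC1, had a log2 difference of -0.19 and no overlap. Eprs, a fused glutamyl and prolyl enzyme, had -0.10, Iars -0.02, Rars -0.07 and Qars -0.09.

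Dars, the aspartyl-tRNA synthetase (chromosome 1, 128363707 to 128417368), was the member of the complex above 0. It was at 94.9 and 88.4 rescaled CPM in the intact and at 111, 93.2, 98.7 and 90.2 in castrated samples 1 to 4, a log2 difference of 0.10 (interval -0.17 to 0.36). Its groups overlap. Qars, in turn, was at 249.7 and 255 in intact and at 267, 239.9, 252 and 197 in castrated samples 1 to 4, where samples 2 and 4 lay below the intact range. The scaffold genes of the complex lay on both sides of 0, with log2 differences of 0.01 for Aimp1 (interval -0.28 to 0.29), -0.15 for Aimp2 (-0.57 to 0.27) and 0.18 for Eef1e1 (-0.35 to 0.70).

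Outside the complex, Gars encodes the glycyl enzyme of both compartments (chromosome 6, 55038007 to 55079500). It was at 117 and 107 rescaled CPM in the intact and at 97.3, 98.9, 92.8 and 88.6 in castrated samples 1 to 4. Every castrated value was below both intact values, with a log2 difference of -0.25 ± 0.09 (SE; limma adjusted p = 0.244). Aars, the alanyl enzyme, had -0.23 and Yars, the tyrosyl enzyme, -0.20, both without overlap. Exosc6, a same-strand neighbour, shares 23.1% of Aars exon bases. The 2 subunit genes of the phenylalanyl enzyme were at -0.08 (Farsa, overlapping groups) and -0.23 (Farsb, no overlap), and Sgpp2, read from the opposite strand, shares 11.3% of Farsb exon bases.

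Wars, the tryptophanyl-tRNA synthetase and a known target of interferon gamma (chromosome 12, 108860030 to 108894174), varied most among castrated samples on the log2 scale. It was at 200.3 and 211 rescaled CPM in the intact and at 241, 154, 195 and 142 in castrated samples 1 to 4. Castrated sample 1 lay above and samples 2, 3 and 4 below both intact values. The log2 difference was -0.20 with an interval of -0.72 to 0.32. Of 10 interferon gamma response genes, 10 were below 0 (49.9% of all genes tested) with a median of -0.52. Limma called 0 of them (1.97% of all genes tested), with 4 lower at an unadjusted limma p under 0.05 (8.06%). EdgeR called 1 lower (1.07%) and DESeq2 2 (4.54%). Without castrated sample 4 limma called 2 lower, Cxcl9 and Ido1 (4.25%). The edgeR call was Cxcl9 (adjusted p = 0.0495) and the DESeq2 calls were Cxcl9 and Cxcl10, and these genes were named after their values were seen.

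Sars, the seryl-tRNA synthetase (chromosome 3, 108424865 to 108445209), was the other cytosolic gene above 0, at 178 and 165 in intact and 196, 173, 185 and 145 in castrated samples 1 to 4. Its log2 difference of 0.02 lay within an interval of -0.30 to 0.35. Cars was at 60.0 and 57.9 in intact and at 60.3, 57.9, 58.0 and 52.8 in castrated samples 1 to 4, a log2 difference of -0.04. Nars, Tars and Hars, the asparaginyl, threonyl and histidyl enzymes, had -0.09, -0.11 and -0.14 with overlapping groups. Hars and Hars2 are neighbours read from opposite strands, and 9.80% of the exon bases of Hars overlap those of Hars2.

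The 20 cytosolic genes summed to 2760 and 2699.6 rescaled CPM in the intact samples 1 and 2 and to 2673, 2376, 2503 and 2242 in castrated samples 1 to 4. All 4 castrated sums were below both intact sums, castrated sample 1 by little. Castrated sample 4 held the lowest castrated value of 15 of the 20 genes (38.6% of all genes tested), and castrated sample 1 the highest of 16 (31.8%). Without castrated sample 4 the median log2 difference of the cytosolic list was -0.09, and without castrated sample 1 it was -0.17. In castrated sample 4 the summed macrophage markers were at 696 rescaled CPM against at most 487 in the other castrated samples (554 to 693 in intact samples), and fibroblast markers at 1774 against at most 1319 (1639 to 1780 in intact samples). Endothelial markers there summed to 129 against at most 72.8 (116 to 125 in intact samples) and cycling cell markers to 255 against at most 200.4 (209.5 to 239.9 in intact samples), and the luminal sum of 6060 was the lowest of the castrated samples. The part of these cell types in the lower synthetase values of that sample was not tested.

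**Figure D4:**
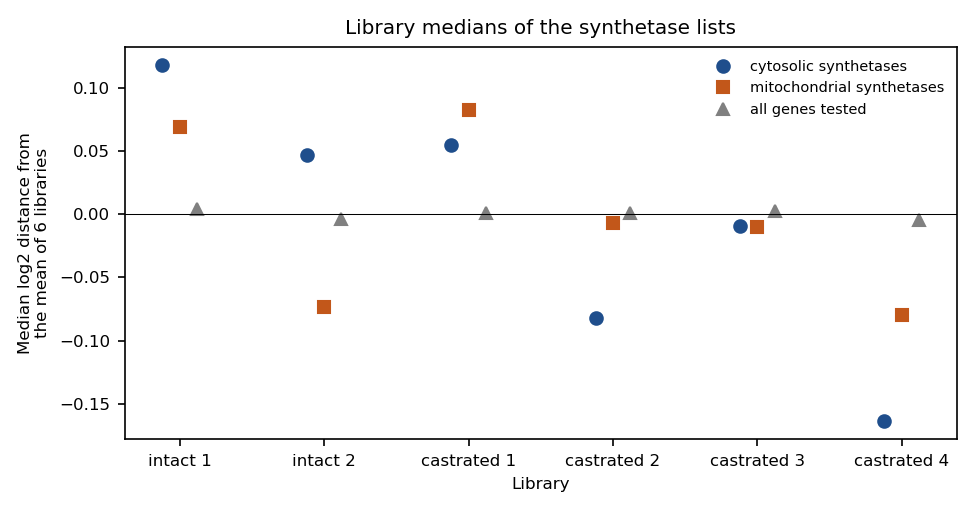
Median distance of each list from its genes' mean over the 6 libraries, on the log2 scale (y axis), for each library (x axis), for the 20 cytosolic genes, the 16 mitochondrial genes and all genes tested. The cytosolic median runs from 0.12 in intact sample 1 to -0.16 in castrated sample 4. All genes tested stay at 0.00, where the size factors place them by construction.

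Mitochondrial genes showed no common direction. Without Lars2 they summed to 388 and 372 rescaled CPM in the intact samples and to 413, 376, 391 and 359 in castrated samples 1 to 4, with both intact sums inside the castrated range. Pars2, the prolyl enzyme (chromosome 4, 106651069 to 106655282), was at 7.84 and 8.69 in intact and at 6.67, 6.77, 5.47 and 6.77 in castrated samples 1 to 4. The groups did not overlap, with a log2 difference of -0.34 ± 0.16 (SE; limma adjusted p = 0.375). Cars2, the cysteinyl enzyme (chromosome 8, 11513977 to 11550783), was at 21.2 and 23.2 in intact and at 20.6, 17.3, 18.6 and 16.4 in castrated samples 1 to 4, -0.28 ± 0.13 on the log2 scale without overlap (limma adjusted p = 0.375). Aars2 and Sars2, the alanyl and seryl enzymes, also lay lower without overlap, at -0.25 and -0.19.

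Fars2, the single-subunit mitochondrial phenylalanyl enzyme (chromosome 13, 36117412 to 36726280), went the other way. It was at 26.3 and 25.5 rescaled CPM in the intact and at 32.2, 28.5, 30.1 and 27.4 in castrated samples 1 to 4, higher without overlap (log2 difference 0.19, interval -0.08 to 0.45). Ears2, the glutamyl enzyme (chromosome 7, 122037213 to 122067263), was at 20.3 and 18.8 in intact and at 26.6, 20.5, 23.1 and 19.5 in castrated samples 1 to 4, a log2 difference of 0.18 with overlapping groups. Mars2 was at 6.67 and 6.59 in intact and at 6.29, 7.43, 6.61 and 8.11 in castrated samples 1 to 4, overlapping at a log2 difference of 0.09. The remaining Iars2, Rars2, Yars2, Wars2 and Tars2 lay between 0.02 and 0.16, and Hars2, Nars2 and Vars2 between -0.09 and -0.06. Genes read from the opposite strand share 32.2% of Iars2 exon bases.

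Mitochondria lack a glutaminyl-tRNA synthetase. There Ears2 first puts glutamate on the glutamine tRNA and an amidotransferase converts it. Its 3 subunit genes had log2 differences of 0.11 (Qrsl1), 0.24 (Gatb) and 0.02 (Gatc), none called by limma (1.97% of all genes tested). Across the 13 pairs, the log2 difference of the cytosolic gene was below that of its mitochondrial counterpart in 10. The ratio of the levels per kb did not overlap between groups in 5 of 13 pairs, 4 lower and 1 higher. Over all genes tested, 13.2% of single genes did so lower and 13.4% higher, and no such share was computed for ratios. The ratio was lower in castrated samples for Mars, Rars, Vars and Yars and higher for Cars, each against its counterpart. Of these genes, Mars, Vars, Yars and the counterpart Cars2 also lacked overlap singly. For Mars to Mars2 the ratio was 49.9 and 43.6 in intact and 43.1, 33.5, 38.2 and 31.8 in castrated samples 1 to 4.

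Of the related genes, Tarsl2 fell in castrated prostates. Tarsl2 encodes a threonyl-tRNA synthetase-like protein closely related to Tars and lies on chromosome 7, 65644898 to 65692091. It was at 34.8 and 29.1 rescaled CPM in the intact and at 16.3, 15.8, 18.3 and 14.6 in castrated samples 1 to 4, so the highest castrated value was well below the lowest intact one. The log2 difference was -0.95 ± 0.14 (SE), 1.94-fold lower, with an interval of -1.29 to -0.62 and a limma adjusted p of 0.0311 (edgeR 0.0288, DESeq2 5.47e-07). The limma call was lost in 7 of 16 alternatives, among them no filter (adjusted p = 0.0503) and without any 1 sample except castrated sample 4 (adjusted p from 0.0711 without castrated sample 3 to 0.242 without intact sample 1). Tars itself, at 98.2 and 90.4 in intact and 93.8, 81.2, 94.0 and 81.6 in castrated samples 1 to 4, had a log2 difference of -0.11. Tm2d3, a same-strand neighbour, shares 3.76% of Tarsl2 exon bases. The other 3 genes of this list, Sepsecs and Pstk, which make selenocysteine on its tRNA, and Secisbp2, which serves its use at the ribosome, were not called.

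None of 8 scaffold and editing genes was called by limma (1.97% of all genes tested). Dtd1, which removes D-amino acids from tRNA, was at 9.15 and 8.41 in intact and at 14.1, 13.5, 12.6 and 10.9 in castrated samples 1 to 4, without overlap and higher. Its log2 difference was 0.51 ± 0.15 (SE; limma adjusted p = 0.17, DESeq2 adjusted p = 0.0424). None of 10 genes of tRNA maturation, export and delivery was called by limma (1.97% of all genes tested), at a median of 0.10.

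Of 20 other genes of the amino acid response, 17 were below 0 (49.9% of all genes tested) with a median of -0.31. Limma called 2 of the 20 lower, Mthfd2 and Phgdh (1.27% of all genes tested), and so did edgeR (1.07%). DESeq2 called 6 lower (4.54%), and limma without castrated sample 4 called 4 lower (4.25%), which added the amino acid transporter genes Slc7a1 and Slc7a5, named after their values were seen. Mthfd2, a mitochondrial folate enzyme, was at 34.7 and 32.7 rescaled CPM in the intact and at 8.16, 10.9, 9.44 and 11.2 in castrated samples 1 to 4 (log2 difference -1.73, limma adjusted p = 0.00927), and the call was kept in 4 of 6 fits that left out 1 sample and lost without either intact sample. Phgdh, which opens serine synthesis, was at 163 and 148 in intact and at 81.7, 64.0, 66.7 and 46.4 in castrated samples 1 to 4 (log2 difference -1.28, limma adjusted p = 0.0415, with the call kept in 1 of 6 such fits, that without castrated sample 4, and lost with no filter or without a mean-variance trend). The regulator itself, Atf4, was at 236 and 184 in intact and at 199, 199.9, 197 and 169.8 in castrated samples 1 to 4, with 3 inside the intact range and sample 4 below it (log2 difference -0.13, interval -0.44 to 0.19). Eif2ak4, the kinase that senses uncharged tRNA, had 0.05 (interval -0.30 to 0.39). Asns, whose promoter is shown above, was at 49.1 and 40.3 in intact and at 62.6, 49.8, 61.0 and 23.2 in castrated samples 1 to 4, with sample 4 the lowest of the 6 and the other castrated samples above both intact ones (log2 difference 0.04, interval -0.91 to 1.00). RNA levels alone were measured, and neither charging of tRNA nor translation.

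**Figure D5:**
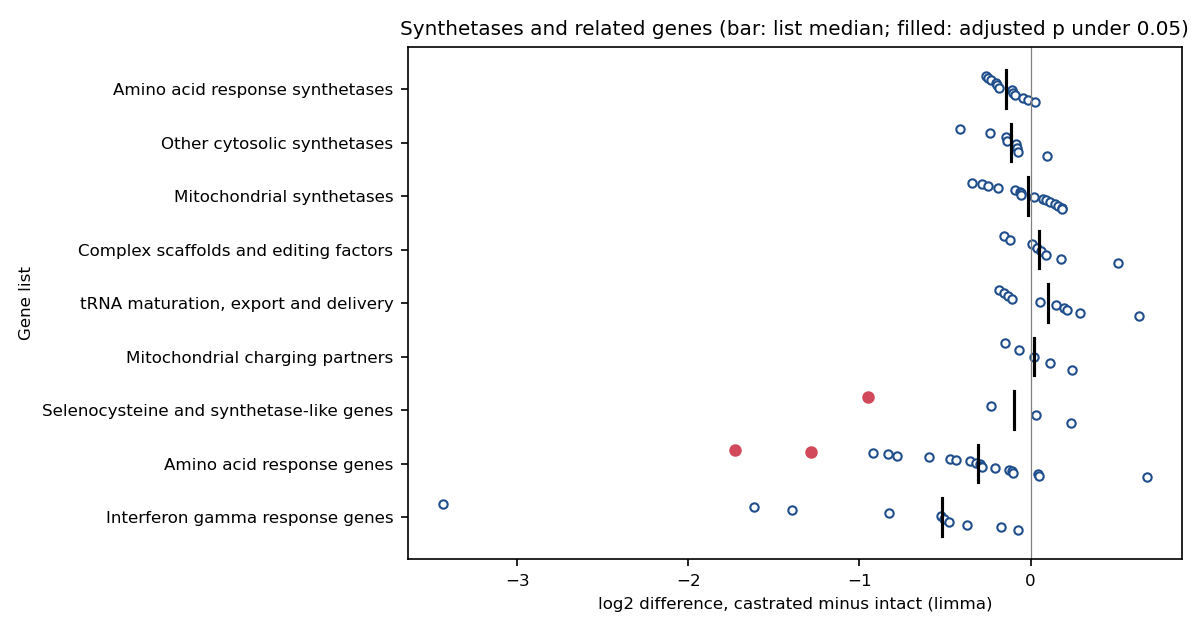
Log2 difference, castrated minus intact samples (x axis), of each gene in 9 lists (rows), with the list median as a bar and genes with a limma adjusted p under 0.05 filled. Filled points are Tarsl2, Mthfd2 and Phgdh, and the cytosolic synthetase medians lie at -0.15 and -0.11 beside -0.31 for the amino acid response genes.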

How the data were processed

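The authors deposited 1 table of CPM per sample, and each column summed to 1000000. Per the submitters' processing notes, TopHat2, HTSeq, edgeR and the build mm10 were used, with no versions given. Dividing each library by its lowest nonzero value gave whole numbers for 100% of genes (tolerance 1e-06), and these were taken as reads. Each library's CPM was rescaled by a median-of-ratios size factor. Genes reaching a CPM of 1 in 2 or more libraries, 13898 in all, entered limma 3.58.1 (R 4.3.3) on log2(value + 0.5), with a mean-variance trend, two-sided, with Benjamini-Hochberg adjustment over all genes and a threshold of 0.05. edgeR 4.0.16 (quasi-likelihood) and DESeq2 1.42.0 were run on the recovered reads, and the scripts were tested on simulated data. Positions, exon lengths and overlaps come from GENCODE M21 on GRCm38, the assembly that mm10 names.

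The members and lists were chosen with earlier results of these data known. By rule, values in every sample are given for members with an unadjusted p under 0.05 or called, the 2 largest differences each way and the highest and lowest level per kb in each compartment, Gars, Kars and Wars, and the largest SD among castrated samples. Of the other lists, Aimp1, Aimp2, Eef1e1, Atf4, Eif2ak4, Asns and called genes were named by rule. Eef1g, Tars, Dtd1 and Rn45s and the short values of other genes were added after they were seen. Alternatives covered pseudocounts, filters, scaling, trend, tools, the replicate number and each sample left out, 16 in all. Some items are not reported here.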

Additional observations from a re-analysis of the deposited data

Results flagged for a closer look

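In the castrated group of 4, Pars2 was at 5.47 rescaled CPM in castrated sample 3, while the other castrated samples lay between 6.67 and 6.77, so that this sample stood apart from the rest of its group. Of 37 genes examined (the 36 synthetases and Tarsl2) this was the only 1, and chance would mark about 1 in 20 such groups.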

How the results depend on the processing

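Calls among the 36 genes were 0 in each of 16 alternatives except DESeq2, with 1 cytosolic gene. The median of the cytosolic list kept its sign in 16 of 16, from -0.17 to -0.08. That of the mitochondrial list lay near 0 and changed sign: it was 0.053 with the replicate number as a block, from -0.049 (without intact sample 2) to 0.10 (without intact sample 1) with 1 sample left out, 0.03 on the CPM as deposited and 0.02 without Lars2, an alternative added after seeing the data. The log2 difference changed sign under at least 1 alternative in 10 of the 36 genes: Cars on the CPM as deposited (0.0030) and with the block (0.0020), Qars (0.0030), Farsa (0.0045) and Nars2 (0.064) with the block, Iars on the CPM as deposited and, over all alternatives, from -0.12 to 0.076, and with 1 sample left out Hars (up to 0.012), Tars2 (down to -0.11), Vars2 (up to 0.035), Sars from -0.036 to 0.11 and Lars2 from -0.50 to 0.38. The alternatives for Tarsl2 were added after seeing the data, and with the block its adjusted p was 0.0580. The labels do not say that replicate numbers pair the samples, and 2 pairs cannot settle it: same-numbered samples' deviations from their group means correlated at 0.0754 and 0.226, and the block changed the calls over all genes from 274 to 417 and no call among the 36. The cause of these changes was not tested. With 2 intact samples, small differences such as those of the cytosolic list lie within the intervals given.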
